A study of Mus musculus with 6 samples.

Results

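Lyve1, Prox1, Pdpn, Mmrn1, Reln and Stab2 are 6 genes in common use as markers of lymphatic endothelium, and their expression was examined in murine tissues around BMSCs-engineered cartilage (BEC) wrapped in membranes with or without axitinib. They were taken by symbol from the read count table, in which they made up 6 of 48440 genes. The study implanted rabbit BEC under the skin of nude mice in electrospun PCL/collagen nanofibrous membranes, and sequenced the RNA of the entangled murine tissues 12 weeks later. The 0%-Axitinib group (3 samples) had membranes without the drug, and the 3%-Axitinib group (3 samples) had membranes in which axitinib, an inhibitor of the VEGF receptor kinases, made up 3% of the mass of PCL and collagen. The host was in both groups a male BALB/c nude mouse, a strain without functional Foxn1 that lacks a thymus and therefore most T cells, and no other gene alteration is described. The mice had been bought at 6 to 8 weeks of age, and the labels give no age at harvest. In the labels the first group is marked as untreated, and it was read as the 0%-Axitinib group because the sequencing protocol of the study names only the 0%-Axitinib and 3%-Axitinib groups. The study also had a control group that received BEC with no membrane, for which the word could stand as well. The tissue was bulk tissue harvested with the construct, so rabbit cells were close by, and the labels do not tie a sample to a mouse. Libraries held 9225518 to 18403795 reads on genes. A gene was called measured in a sample above 3 counts, a limit of detection that came to 0.157 to 0.330 CPM (reads scaled to library size after TMM normalization), depending on the library, and that covers counting error only.

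Lymphatic vessels drain fluid, proteins and immune cells from tissue. Their endothelium arises largely from venous endothelium once the transcription factor PROX1 is switched on, and it grows in response to VEGF-C and VEGF-D through the receptor FLT4 (VEGFR3), with NRP2 as a coreceptor. Most lymphatic markers are shared with other cells: LYVE1 is also made by resident macrophages, PDPN by fibroblastic cells and osteocytes, MMRN1 by megakaryocytes and platelets, and STAB2 by the sinusoidal endothelium of liver, spleen, bone marrow and lymph node.

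The samples were not alike in the marker genes of other cell types. The gene that leads a list is the one with the highest CPM over both groups together, and it need not lead in each group. Replicate 3 of the 0%-Axitinib group stood apart by blood and bone marrow genes. A list of 10 haemoglobin and erythroid genes, led by Hbb-bs, summed to 447, 395 and 22618 CPM in replicates 1, 2 and 3 of the 0%-Axitinib group, and to 169, 382 and 535 CPM in the 3%-Axitinib group. For 10 platelet and megakaryocyte genes, led by Pf4, the sums were 123, 75.8 and 1029 CPM against 185, 250.5 and 188 CPM. Pf4 alone was at 152, 220 and 149 CPM in the 3%-Axitinib group. It held most of each sum except in replicate 3 of the 0%-Axitinib group. That replicate was thus the highest for both lists, and it was also the highest for 9 B and plasma cell genes, led by Ighm, with 210.5, 732 and 1953 CPM against 42.9, 29.2 and 54.5 CPM. Replicate 2 of the 0%-Axitinib group stood apart by 8 keratinocyte genes, led by Krt1, which summed to 899.7 CPM there and to at most 8.47 CPM in the other samples. Replicates 1 and 3 of the 3%-Axitinib group stood apart by 20 skeletal muscle genes, led by Acta1, with 18628 and 10342 CPM against 49.3 CPM in replicate 2 and at most 216 CPM in the 0%-Axitinib group. The erythroid list and the B and plasma cell list were chosen after values had been seen, and no gene of these 5 lists was at 0 in all 6 samples. In the 3%-Axitinib group, 6 of 6 tested erythroid genes, 7 of 7 B and plasma cell genes, 2 of 7 platelet genes and 2 of 3 keratinocyte genes were lower by the study's criterion (1.5-fold or more, with an unadjusted p no larger than 0.05 in edgeR's quasi-likelihood test), and 17 of 19 muscle genes were higher. Of all tested genes, 11.7% were lower and 9.54% were higher by this criterion. The counts moved with single samples. Without replicate 3 of the 0%-Axitinib group, 1 of 6 erythroid genes, 6 of 7 B and plasma cell genes and 0 of 7 platelet genes were lower, and 11 of 19 muscle genes were higher. Without that sample, the median log2 fold change was -0.27 in place of -4.85 for the erythroid list, -3.26 in place of -5.92 for the B and plasma cell list, 0.64 in place of -2.45 for the platelet list and 6.52 in place of 6.77 for the muscle list. Without replicate 2 of that group, 0 of 3 keratinocyte genes were lower, and their median log2 fold change was 0.52 in place of -3.93. The platelet genes that were lower numbered 6 of 7 without replicate 1 and 5 of 7 without replicate 2. Without any 1 of the 3%-Axitinib samples, 0 erythroid, 0 platelet and 0 keratinocyte genes were lower by the criterion, although the median log2 fold changes did not shrink by much or at all. Without replicates 1, 2 and 3 in turn, these were -4.88, -5.14 and -5.06 for the erythroid list (-4.85 with all samples), -2.50, -2.31 and -2.72 for the platelet list (-2.45) and -3.94, -5.52 and -5.19 for the keratinocyte list (-3.93). In DESeq2's Wald test, 0 erythroid, 6 B and plasma cell, 1 platelet and 0 keratinocyte genes were lower, with medians of -4.85, -5.93, -2.45 and -3.93, close to those in edgeR. By default DESeq2 gives no p-value to a gene with an outlying count, and such a gene was counted here as not meeting the criterion. These DESeq2 counts therefore do not show that the genes were tested and found not lower. In limma-voom, only 4 B and plasma cell genes of these lists were lower, and 1 muscle gene was higher. Its medians were -2.32 for the erythroid, -3.82 for the B and plasma cell, -0.87 for the platelet, -1.49 for the keratinocyte and 5.09 for the muscle list. The part of these cell types in the results on the 6 genes was not tested. For many results that rest on 1 sample, the value without it or the values of each sample are given.

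**Figure D1:**
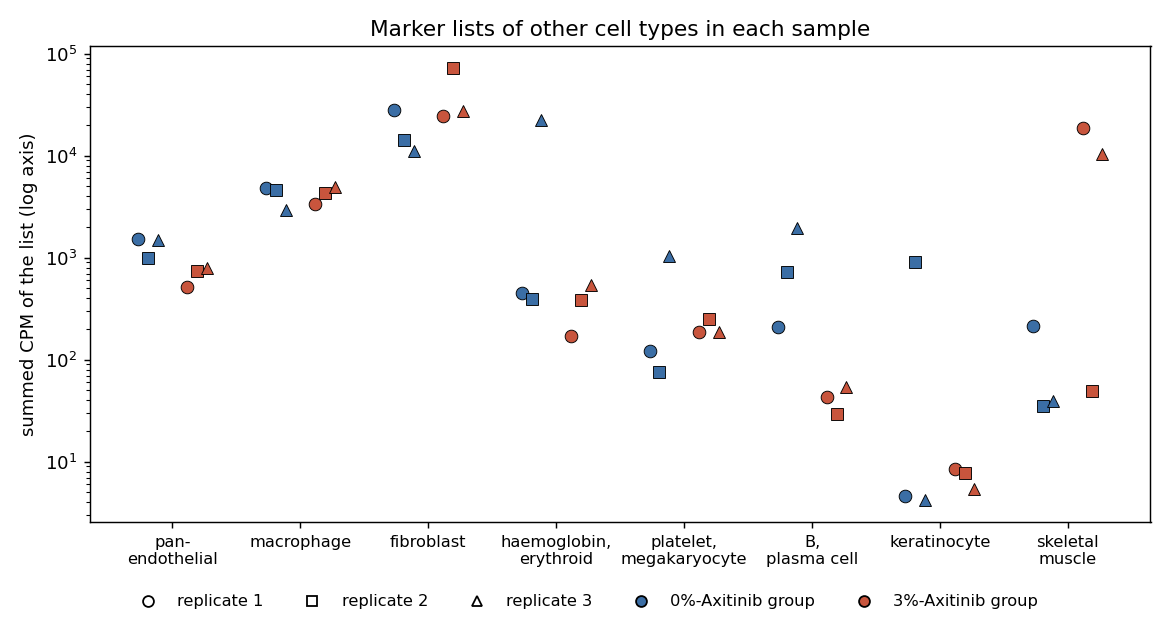
Summed CPM of 8 marker lists (log axis) in the 3 samples of the 0%-Axitinib group and the 3 samples of the 3%-Axitinib group, 1 point per sample. Replicate 3 of the 0%-Axitinib group lies far above the other samples for haemoglobin and erythroid genes (22618 CPM) and for platelet and megakaryocyte genes (1029 CPM), and replicates 1 and 3 of the 3%-Axitinib group do so for skeletal muscle genes.

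Prox1, the transcription factor that sets lymphatic endothelial identity, was close to the limit of detection. Its counts were 14, 3 and 2 in replicates 1, 2 and 3 of the 0%-Axitinib group and 2, 0 and 3 in the 3%-Axitinib group, or 24 of 91799684 reads in all. Only replicate 1 of the 0%-Axitinib group was above 3 counts, and its 14 reads had an exact 95% counting interval of 7.65 to 23.5 reads. The levels were 0.731, 0.175 and 0.109 CPM against 0.220, 0 and 0.174 CPM, so the groups overlapped, and the count of 0 allows up to 3 counts, which is 0.273 CPM in that sample. Prox1 did not pass the filter on low counts and was not tested across genes. A difference between the groups was not detectable at this depth (exact two-sided permutation test, p = 0.5). The gene lies on the minus strand of chromosome 1 of GRCm38 (190118035 to 190170714), where Gm28172 and Prox1os overlap its exons on the other strand. Whether counting used the strand is not stated. It is therefore not known how reads over the shared stretches were assigned, to either gene or set aside as ambiguous. Ccl21a, a chemokine that lymphatic endothelium secretes, was also near the limit, with 4, 7 and 0 counts in the 0%-Axitinib group and 1, 0 and 1 counts in the 3%-Axitinib group. Ccl21a has near-identical copies in the mouse genome, so its low counts are uncertain. With Prox1, a defining marker, above the limit in 1 of 6 samples, the 6 genes are called by name from here on and not by a cell type, and which cells their reads came from was not tested.

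Lyve1 encodes a hyaluronan receptor of lymphatic endothelium and of some tissue macrophages, and its level did not separate the groups. It had 2487, 1003 and 245 counts (129.8, 58.5 and 13.3 CPM) in replicates 1, 2 and 3 of the 0%-Axitinib group and 751, 365 and 1322 counts (82.6, 33.3 and 76.5 CPM) in the 3%-Axitinib group, above 3 counts in 6 of 6 samples. Both the highest and the lowest sample belonged to the 0%-Axitinib group, and the 3%-Axitinib samples lay between them. The means were 67.2 ± 58.7 CPM and 64.1 ± 26.9 CPM (SD, n = 3 each). The log2 fold change was -0.07 (standard error, SE, 0.74, 95% interval -1.82 to 1.68, adjusted p = 0.964 by edgeR's quasi-likelihood test with Benjamini-Hochberg adjustment), and the exact permutation p was 1. This interval spans changes in either direction of more than 1.5-fold. The sign of the estimate rested on single samples, since it was -0.56 without replicate 3 and 0.83 without replicate 1 of the 0%-Axitinib group. In bulk tissue, fewer cells of a type and less RNA per cell cannot be told apart, here and for the other genes. Lyve1 is on the minus strand of chromosome 7 (110850607 to 110863239) and overlaps no other annotated gene.

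A list of 12 macrophage genes, led by Cd68, summed to 4841, 4574 and 2929 CPM in the 0%-Axitinib group and to 3358, 4265 and 4972 CPM in the 3%-Axitinib group. Of its 11 tested genes, 1 (Timd4) was lower by the study's criterion and 0 were higher. None met it without replicate 1 of the 0%-Axitinib group or without replicate 2 of the 3%-Axitinib group. Their median log2 fold change was -0.20, against -0.03 over all 15257 tested genes, and it was 0.14 without replicate 1 of the 0%-Axitinib group. Taken relative to the mean of the macrophage list in the same sample, Lyve1 differed between the groups by 0.55 on the log2 scale (exact permutation test, p = 0.6), within the spread between replicates. The relative levels were -0.02, -0.80 and -2.37 in the 0%-Axitinib group and 0.07, -1.28 and -0.34 in the 3%-Axitinib group. The direction rested on replicate 3 of the 0%-Axitinib group and turns without it. Marco, a scavenger receptor of other macrophages, had at most 2 counts in any sample.

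Stab2, the endocytic hyaluronan receptor of sinusoidal endothelium, was the only 1 of the 4 tested genes to meet the study's criterion, and it did so no longer when any 1 of 4 samples was left out. Its counts were 30, 106 and 422 (1.57, 6.18 and 22.9 CPM) in the 0%-Axitinib group and 24, 15 and 33 (2.64, 1.37 and 1.91 CPM) in the 3%-Axitinib group, above 3 counts in 6 of 6 samples. Replicates 2 and 3 of the 0%-Axitinib group were above every 3%-Axitinib sample, whereas replicate 1 lay within their range, so the groups overlapped. Replicate 3 held 75.6% of the group's reads of the gene. The means were 10.2 ± 11.2 CPM and 1.97 ± 0.639 CPM (SD, n = 3 each), and the log2 fold change was -2.37 (SE 0.91, 95% interval -4.53 to -0.22, unadjusted p = 0.0354 and adjusted p = 0.181 by edgeR's quasi-likelihood test). The exact permutation test over the 6 samples gave p = 0.3. Without replicate 3, the log2 fold change was -0.98 (unadjusted p = 0.175, edgeR), and the criterion was also not met without any 1 of the 3%-Axitinib samples (unadjusted p of 0.0639 or more). There the log2 fold change stayed close to that of all samples, at -2.60, -2.15 and -2.33 without replicates 1, 2 and 3 in turn. Without replicates 1 and 2 of the 0%-Axitinib group in turn, it was -2.88 and -2.63 and the criterion was met. DESeq2's Wald test put the adjusted p at 0.0431 and limma-voom, in which the criterion was not met, at 0.434, and these are the ends of the range over all settings. With the replicate number as a block, the criterion was not met either (log2 fold change -1.77).

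Stab2 also belongs to a list of 8 genes of scavenger sinusoidal endothelium, of which 7 were in the table and 5 were tested. The list, led by Stab1, summed to 1318, 1227 and 513 CPM in the 0%-Axitinib group and to 812, 819 and 814 CPM in the 3%-Axitinib group, and with all samples Stab2 was its only tested gene that met the criterion. Most of each sum came from Stab1, Fcgr2b and Mrc1, of which Mrc1 is also in the macrophage list. Without replicate 3 of the 0%-Axitinib group, 1 gene of the list was lower, and it was not Stab2. The median log2 fold change was then -0.67 in place of -0.23. Stab1, a related receptor that macrophages also make, was at 621, 525 and 153 CPM against 228, 283 and 359 CPM, and thus lowest in the sample in which Stab2 was highest. Clec4g, a lectin of sinusoidal endothelium, had 5, 3 and 12 counts against 0, 0 and 2 counts, and Gata4 had at most 7 counts in a sample. Stab2 is on the minus strand of chromosome 10 (86841198 to 87008025), with Gm16268 and Gm16271 over its exons on the other strand.

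Mmrn1 encodes multimerin, a secreted protein stored in platelets and megakaryocytes and also made by endothelium, and nearly all of its reads came from 1 sample. The counts were 2, 13 and 295 (0.104, 0.758 and 16.0 CPM) in the 0%-Axitinib group and 0, 0 and 3 (0, 0 and 0.174 CPM) in the 3%-Axitinib group. Above 3 counts were replicates 2 and 3 of the 0%-Axitinib group, the latter with 95.2% of the group's reads, and none of the 3%-Axitinib samples. Replicate 1 of the 0%-Axitinib group was below replicate 3 of the 3%-Axitinib group, so the groups overlapped (exact permutation test, p = 0.2). The counts of 0 in the 3%-Axitinib group allow up to 3 counts, which is 0.330 CPM in replicate 1 and 0.273 CPM in replicate 2. Mmrn1 did not pass the filter on low counts. With no such filter, it met the study's criterion (unadjusted p = 0.00730 and adjusted p = 0.143 by edgeR's quasi-likelihood test), with a fitted log2 fold change of -6.08 that depends on the prior count. It passed the filter without any 1 of the 3%-Axitinib samples, and did not meet the criterion there (unadjusted p of 0.0655 or more, edgeR). The fitted log2 fold changes were -5.68, -5.61 and -9.37 without replicates 1, 2 and 3 in turn. Without replicate 1 of the 0%-Axitinib group, it passed the filter and met the criterion (-6.66). Mmrn1 passed the filter in these cases only through the 0%-Axitinib samples, where it was high. A call as lower there is thus no support for a difference. Without replicate 3 of the 0%-Axitinib group, its reads there averaged 0.431 CPM, and it could not be tested after the filter. The gene lies on the plus strand of chromosome 6 (60924976 to 60989378) and overlaps no other annotated gene.

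Replicate 3 of the 0%-Axitinib group, the highest for Mmrn1 and Stab2, was also the highest for platelet and megakaryocyte genes. Clec1b, a platelet receptor for podoplanin, was at 0.783, 1.11 and 42.6 CPM in the 0%-Axitinib group and at 0.330, 0.547 and 0.579 CPM in the 3%-Axitinib group. Gp9, a platelet adhesion receptor subunit, was at 0.209, 0.117 and 32.2 CPM in the 0%-Axitinib group and at 0 in the 3%-Axitinib group. The median log2 fold change of the platelet and megakaryocyte list was -2.45 with all samples and 0.64 without replicate 3. The share of these cells in the reads of Mmrn1 and Stab2 was not tested. For Lyve1, Pdpn, Reln and Prox1, this sample held at most 10.7% of the reads of the 0%-Axitinib group.

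Pdpn, the mucin-like glycoprotein podoplanin of lymphatic endothelium, fibroblastic cells and osteocytes, had the most reads of the 6 genes over both groups together, while Lyve1 had more in the 0%-Axitinib group. The counts were 1381, 1574 and 278 (72.1, 91.8 and 15.1 CPM) in the 0%-Axitinib group and 1004, 770 and 1972 (110.4, 70.2 and 114 CPM) in the 3%-Axitinib group, above 3 counts in 6 of 6 samples. Replicates 1 and 3 of the 3%-Axitinib group were the highest samples and replicate 3 of the 0%-Axitinib group was the lowest, while the remaining samples of both groups were mixed. The means were 59.7 ± 39.8 CPM and 98.2 ± 24.4 CPM (SD, n = 3 each), and the log2 fold change was 0.72 (SE 0.59, 95% interval -0.68 to 2.12, adjusted p = 0.483 by edgeR's quasi-likelihood test). The exact permutation p was 0.3. Without replicate 3 of the 0%-Axitinib group, the log2 fold change was 0.26 (unadjusted p = 0.352, edgeR). Pdpn is on the minus strand of chromosome 4 (143267431 to 143299564) and overlaps no other annotated gene.

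The 12 fibroblast genes, led by Col1a1, summed to 28269.6, 14178 and 11185 CPM in the 0%-Axitinib group and to 24736, 72514 and 27459.9 CPM in the 3%-Axitinib group. By the study's criterion, 2 of the 12 (Col1a1 and Thy1) were higher, against 9.54% of all tested genes, and 0 were lower (median log2 fold change 0.79). The number higher was 0 without replicate 2 or 3 of the 0%-Axitinib group, without replicate 2 of the 3%-Axitinib group, with libraries scaled by total counts and with the replicate number as a block (medians of 0.43 to 0.77), and it was 1 without replicate 3 of the 3%-Axitinib group (median 0.98). It was 3 without replicate 1 of the 0%-Axitinib group (median 1.17) and in DESeq2's Wald test (median 0.78). Relative to the mean of this list, Pdpn differed between the groups by 0.32 on the log2 scale (exact permutation test, p = 0.7). The relative levels were -3.49, -2.35 and -4.50 in the 0%-Axitinib group and -2.77, -3.93 and -2.68 in the 3%-Axitinib group. Here too the direction rested on replicate 3 of the 0%-Axitinib group and turns without it. A list of 9 osteocyte and osteoblast genes, led by Ibsp, summed to 322, 253 and 660.0 CPM against 1365, 13441 and 2643 CPM, and 4 of its 8 tested genes (Sost, Mepe, Ibsp and Alpl) were higher. The median log2 fold change was 2.93, and 1 tested gene had a negative estimate. In DESeq2's Wald test, without replicate 3 of the 0%-Axitinib group and without replicate 1 of the 3%-Axitinib group, 6 of 8 were higher (medians of 2.93, 3.86 and 3.39). Without replicates 1 and 2 of the 0%-Axitinib group in turn, 4 of 9 were higher (medians of 2.01 and 1.85). Replicate 2 of the 3%-Axitinib group, by far the highest for the sums of this list and of the fibroblast list, was the lowest of its group for Pdpn. Its fibroblast sum was mostly Col1a1, Col1a2 and Col3a1 (30639, 23519 and 13116 CPM). The mean log2 CPM of the fibroblast list differed less, at 9.56, 10.07 and 9.52 in replicates 1, 2 and 3 of the 3%-Axitinib group. Within that list and group, replicate 2 was the lowest sample for Dcn and the highest for Postn.

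Reln encodes reelin, a secreted glycoprotein known from the nervous system and from collecting lymphatic vessels. It had 435, 113 and 66 counts (22.7, 6.59 and 3.58 CPM) in the 0%-Axitinib group and 145, 115 and 214 counts (15.9, 10.5 and 12.4 CPM) in the 3%-Axitinib group, above 3 counts in 6 of 6 samples. The 0%-Axitinib group held the highest sample (replicate 1) and the lowest pair of samples, and the 3%-Axitinib samples lay between them. The means were 11.0 ± 10.3 CPM and 12.9 ± 2.78 CPM (SD, n = 3 each), and the log2 fold change was 0.24 (SE 0.65, 95% interval -1.29 to 1.77, adjusted p = 0.846 by edgeR's quasi-likelihood test). The exact permutation p was 0.8. Without replicate 1 of the 0%-Axitinib group, Reln met the study's criterion as higher in the 3%-Axitinib group (log2 fold change 1.34, edgeR, unadjusted p = 0.0187 and adjusted p = 0.157), while without replicates 2 and 3 in turn the estimate was -0.03 and -0.19. Reln is on the minus strand of chromosome 5 (21884454 to 22344702), and Gm10475 lies over its exons on the other strand.

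The 10 genes of the Schwann cell and nerve list, led by Mbp, summed to 1337, 385 and 215 CPM in the 0%-Axitinib group and to 1556, 1495 and 1367 CPM in the 3%-Axitinib group. As for Reln, replicates 2 and 3 of the 0%-Axitinib group were the lowest samples. Of these 10 genes, 1 was higher by the study's criterion, against 9.54% of all tested genes, and 0 were lower (median log2 fold change 1.25, or 0.84 without replicate 3 of the 0%-Axitinib group). This count depended on the samples and the test. It was 7 higher without replicate 1 of the 0%-Axitinib group, 0 without replicate 2 of that group (median log2 fold change 0.92) or any 1 of the 3%-Axitinib samples (medians of 1.24, 1.24 and 1.29, close to that of all samples), and 2 higher with 1 lower without replicate 3 of the 0%-Axitinib group. With all samples, 6 were higher with limma-voom and with the replicate block (medians of 1.78 and 1.82), 4 were higher and 1 was lower in DESeq2's Wald test, 2 were higher and 1 was lower with no filter on low counts, and 0 were higher with total counts (median 1.10). The part of nerve in the reads of Reln was not tested.

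**Figure D2:**
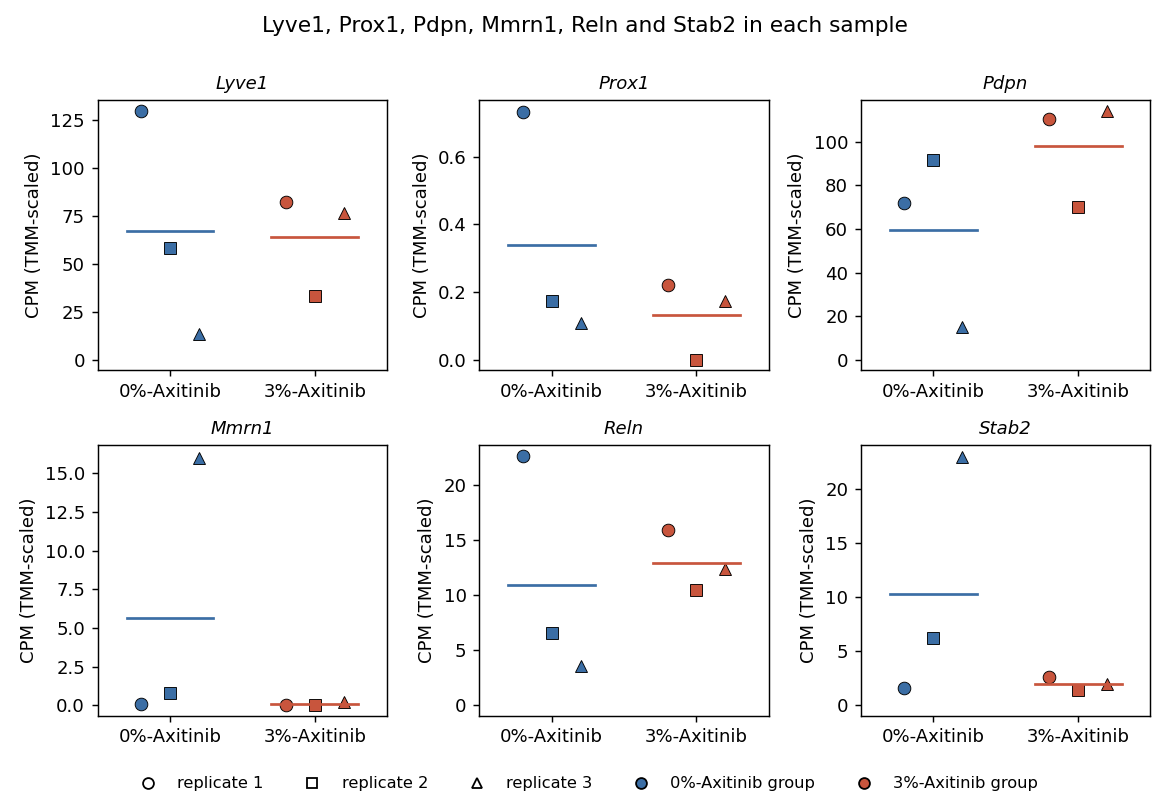
CPM after TMM scaling (linear axes starting at 0, a separate scale for each gene) of Lyve1, Prox1, Pdpn, Mmrn1, Reln and Stab2, 1 point per sample, with the group mean as a line (n = 3 each). The groups overlap for each of the 6 genes, and replicate 3 of the 0%-Axitinib group is the highest sample for Mmrn1 (16.0 CPM) and Stab2 (22.9 CPM) and the lowest for Lyve1 (13.3 CPM), Pdpn (15.1 CPM) and Reln (3.58 CPM).

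Of the 6 genes, 4 passed the filter on low counts (Lyve1, Pdpn, Reln and Stab2), and Prox1 and Mmrn1 did not. After Benjamini-Hochberg adjustment, 0 of the 4 passed 0.05 in edgeR's test, against 0.00655% of all 15257 tested genes (1 gene). At an unadjusted p of at most 0.05 this number was 1 (Stab2), against 23.5% of all tested genes. After adjustment in DESeq2's Wald test it was 1 (Stab2), against 12.9% of all tested genes, and in limma-voom it was 0, against 0.0131%. The study's criterion was met by 1 of the 4. This criterion was met by 21.2% of all tested genes in either direction and by 11.7% as lower, so the count is no result about these genes. The study, which normalized with DESeq2, reported fewer genes by its own criterion and more of them higher than lower. The shares given here are thus not the study's. The groups overlapped for each of the 6 genes, whereas they did not overlap for 31.3% of all tested genes, and every 3%-Axitinib sample was below every 0%-Axitinib sample for 16.6%. Of the 3241 genes that met the criterion, 55.1% were lower, and with libraries scaled by total counts this share was 71.2% and the median log2 fold change of all tested genes was -0.16 in place of -0.03. The directions of Lyve1, Pdpn, Reln and Stab2 were the same under that scaling. Leaving out replicate 3 of the 0%-Axitinib group gave 0 of 4 tested members that met the criterion, against 28.2% of 15690 tested genes. Leaving out replicate 1 gave 3 of 5 (Mmrn1 and Stab2 lower, Reln higher), against 21.7% of 15868 tested genes. Mmrn1 was tested there only because of its counts in the 0%-Axitinib group, so its call as lower is no support for a difference. Leaving out replicates 1, 2 and 3 of the 3%-Axitinib group in turn gave 0 of 5 each, against 14.9%, 17.2% and 15.5% of tested genes.

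Between the highest and lowest sample of the 0%-Axitinib group, Stab2 differed by a factor of 14.6, Lyve1 by 9.76, Reln by 6.33 and Pdpn by 6.08 in CPM. Between replicates 1 and 2 alone, the factors were 3.95, 2.22, 3.45 and 1.27. In the 3%-Axitinib group, they were 1.93 for Stab2, 2.48 for Lyve1, 1.52 for Reln and 1.63 for Pdpn. None is given for Prox1 and Mmrn1, whose lowest samples had 2 counts in the 0%-Axitinib group and 0 counts in the 3%-Axitinib group, under the limit of detection.

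Levels of different genes were compared as CPM per kb of all annotated exons of a gene, a length that reached 23738 bases for Reln. In the 0%-Axitinib group, Pdpn (32.8 ± 21.9 CPM per kb, SD, n = 3) and Lyve1 (23.0 ± 20.1) were the most abundant by this measure of level. The means of the other 4 were 1.17 ± 1.28 for Stab2, 0.959 ± 1.54 for Mmrn1, 0.462 ± 0.433 for Reln and 0.0403 ± 0.0407 for Prox1. The order of these 4 rested on replicate 3, since the means of replicates 1 and 2 were 0.617 for Reln, 0.442 for Stab2, 0.0735 for Mmrn1 and 0.0540 for Prox1, beside 45.1 for Pdpn and 32.3 for Lyve1. With all 3 samples, among neighbours in the order of the means, the samples of Lyve1 and Stab2 and those of Reln and Prox1 did not overlap, while the others did. In the 3%-Axitinib group, the order of the levels per kb was Pdpn (54.1 ± 13.4), Lyve1 (22.0 ± 9.22), Reln (0.545 ± 0.117), Stab2 (0.225 ± 0.0729), Prox1 (0.0156 ± 0.0138) and Mmrn1 (0.00987 ± 0.0171). There the samples overlapped for Prox1 and Mmrn1, and for no other neighbours. For scale, the endothelial adhesion gene Pecam1 had a level of 34.2 ± 9.73 CPM per kb in the 0%-Axitinib group and 11.2 ± 2.64 CPM per kb in the 3%-Axitinib group.

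The 6 genes were set against 15 pan-endothelial genes, led by Plvap over both groups together, by Pecam1 in the 0%-Axitinib group and by Eng in the 3%-Axitinib group, to ask whether they differed from endothelial genes in general. The list summed to 1541, 1005 and 1478 CPM in the 0%-Axitinib group and to 516, 741 and 790.2 CPM in the 3%-Axitinib group. Of these 15 genes, 12 were lower by the study's criterion and 0 were higher (median log2 fold change -1.30, and -1.33 with 10 lower without replicate 3 of the 0%-Axitinib group), and every 3%-Axitinib sample was below every 0%-Axitinib sample for 11 (16.6% of all tested genes). In each sample, the mean log2 CPM of the list (prior count 2) was subtracted from that of a gene. For Pdpn, this relative level was -0.02, 0.86 and -2.39 in the 0%-Axitinib group and 2.49, 1.35 and 1.77 in the 3%-Axitinib group. Every 3%-Axitinib sample was above every 0%-Axitinib sample, a difference of 2.38 (exact permutation test, p = 0.1, the smallest that 3 samples against 3 allow, and 0.45 after adjustment over the 9 relative levels compared). Reln was at -1.68, -2.91 and -4.42 against -0.29, -1.38 and -1.42. It separated the groups as well, by 1.97 (exact permutation test, p = 0.1, adjusted p = 0.45), and neither difference passed the adjustment. Separation in this direction was found for 64% of all 15257 tested genes, whose median difference was 1.34, since the list itself was lower in the 3%-Axitinib group, so the separation alone is no result about Pdpn and Reln. By size, 8.0% of all tested genes had a larger difference than Pdpn and 17.0% a larger one than Reln. Without replicate 3 of the 0%-Axitinib group, the differences were 1.45 for Pdpn and 1.26 for Reln. The relative level of Lyve1 overlapped between the groups and differed by 1.69 (exact permutation test, p = 0.2), or 0.66 without that replicate. Prox1 and Mmrn1 differed by 0.61 and -1.78 (exact permutation test, p = 0.5 each), values that depend on the prior count at such counts. Without replicate 3 of the 0%-Axitinib group, these shrank to 0.12 for Prox1 and -0.19 for Mmrn1. Stab2 differed by -0.28 (exact permutation test, p = 1) and by 0.53 without replicate 3, so its level relative to the pan-endothelial list had no stable direction. Against the macrophage list, Stab2 differed by -1.42 (exact permutation test, p = 0.4). These relative levels were -6.28, -4.02 and -1.59 in the 0%-Axitinib group and -4.83, -5.75 and -5.57 in the 3%-Axitinib group. Most of this difference rested on replicate 3 of the 0%-Axitinib group.

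Other genes of the lymphatic system were taken from a list of 23 symbols, of which 22 were in the table and 19 were tested. By the study's criterion, 4 of the 19 were lower (Flt4, Sox18, Gata2 and Angpt2), 3 were higher (Ackr2, Emilin1 and Thy1) and 12 were neither, beside 11.7% lower and 9.54% higher of all tested genes. They had a median log2 fold change of -0.32 against -0.03 over all tested genes. Without replicate 3 of the 0%-Axitinib group, 6 were lower and 0 were higher, beside 13.7% and 14.5% of all tested genes, with a median of -0.49.

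In the growth factor axis, Flt4, the receptor of VEGF-C and VEGF-D, which blood vessel endothelium also makes, was at 8.25, 8.51 and 23.6 CPM in the 0%-Axitinib group and at 2.64, 5.10 and 3.59 CPM in the 3%-Axitinib group. The groups did not overlap, and replicate 3 of the 0%-Axitinib group was the highest sample. The log2 fold change was -1.83 (SE 0.52, adjusted p = 0.121, edgeR), and -1.15 without that replicate. Its ligand gene Vegfc was at 12.1, 6.88 and 7.17 CPM against 6.71, 7.65 and 6.02 CPM, with overlapping groups (log2 fold change -0.36, SE 0.33, adjusted p = 0.528, edgeR). Nrp2, the most abundant gene of this axis, and Vegfd, listed under its older symbol Figf, did not meet the criterion with all samples. Of the 5 tested genes of the axis, 1 was then lower (median log2 fold change -0.50). Without replicate 3 of the 0%-Axitinib group 3 were lower (median -0.69), and with total counts 2 were lower (median -0.64). Without replicate 1 of that group, and with the replicate block, 1 was lower and 1 was higher.

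Among the transcription factors, Sox18, which acts upstream of Prox1 and also in blood vessel endothelium, was at 47.3, 25.1 and 86.1 CPM in the 0%-Axitinib group and at 6.38, 16.8 and 21.0 CPM in the 3%-Axitinib group. The groups did not overlap, and the log2 fold change was -1.84 (SE 0.57, adjusted p = 0.135, edgeR). For Gata2, a regulator of lymphatic valves and of blood cell precursors, the log2 fold change came to -1.92 (SE 0.76, adjusted p = 0.193, edgeR). Its level was 27.2 CPM in replicate 3 of the 0%-Axitinib group, the sample with the most erythroid and platelet reads, and at most 7.15 CPM in the other samples, and without that replicate the log2 fold change was -0.82 and the criterion was not met. It was also not met with limma-voom (-1.62), nor without replicate 1 (-1.58) or 2 (-1.76) of the 3%-Axitinib group, where the estimate changed less. Nr2f2, a venous regulator that acts with Prox1, was at 37.2, 20.5 and 32.3 CPM against 25.4, 34.8 and 21.8 CPM (log2 fold change -0.13, SE 0.29, adjusted p = 0.808, edgeR). Its groups overlapped, and so does its locus with a gene on the other strand, B130024G19Rik. Maf, the most abundant gene of this list and a transcription factor that macrophages also make, did not meet the criterion (log2 fold change -0.31, SE 0.19, adjusted p = 0.357, edgeR). Its groups did not overlap, at 159, 122.9 and 124 CPM against 112.6, 109.7 and 106 CPM.

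Among surface and secreted genes, Angpt2, a ligand of the TIE2 receptor, was lower by the criterion with groups that did not overlap (log2 fold change -1.20, SE 0.33, adjusted p = 0.113, edgeR). It lies within Mcph1 on the other strand. Ackr2, a scavenging chemokine receptor of lymphatic endothelium, was at 23.1, 11.7 and 7.44 CPM in the 0%-Axitinib group and at 70.6, 8.47 and 83.6 CPM in the 3%-Axitinib group. It was thus high in replicates 1 and 3 of the 3%-Axitinib group, the samples with the most muscle reads, and the groups overlapped (log2 fold change 1.95, SE 0.81, adjusted p = 0.206, edgeR). Emilin1, an elastic fibre protein of lymphatic anchoring filaments, and Thy1, a surface protein that fibroblasts also carry and that is in the fibroblast list, had log2 fold changes of 0.95 and 0.87, with standard errors of 0.36 each (edgeR, adjusted p = 0.177 and 0.207). Their groups did not overlap. Ackr2, Emilin1 and Thy1 no longer met the criterion with libraries scaled by total counts (1.81, 0.81 and 0.73) or without replicate 3 of the 0%-Axitinib group (1.64, 0.70 and 0.70). Ackr2 also lost it with limma-voom (1.56) and with the replicate block (1.57), and Thy1 with the block (0.87). With each of the 6 samples left out, it was lost for Ackr2 in 4 cases, for Thy1 in 5 and for Emilin1 in 3. The log2 fold changes in these cases were 1.48 to 1.82 for Ackr2, 0.52 to 1.02 for Thy1 and 0.62 to 1.05 for Emilin1, and those of Thy1 and Emilin1 were in some cases above the values with all samples. The tetraspanin Cd9, the most abundant gene of this list and widely expressed in other cells, did not meet it (log2 fold change -0.28, SE 0.30, adjusted p = 0.592, edgeR).

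**Figure D3:**
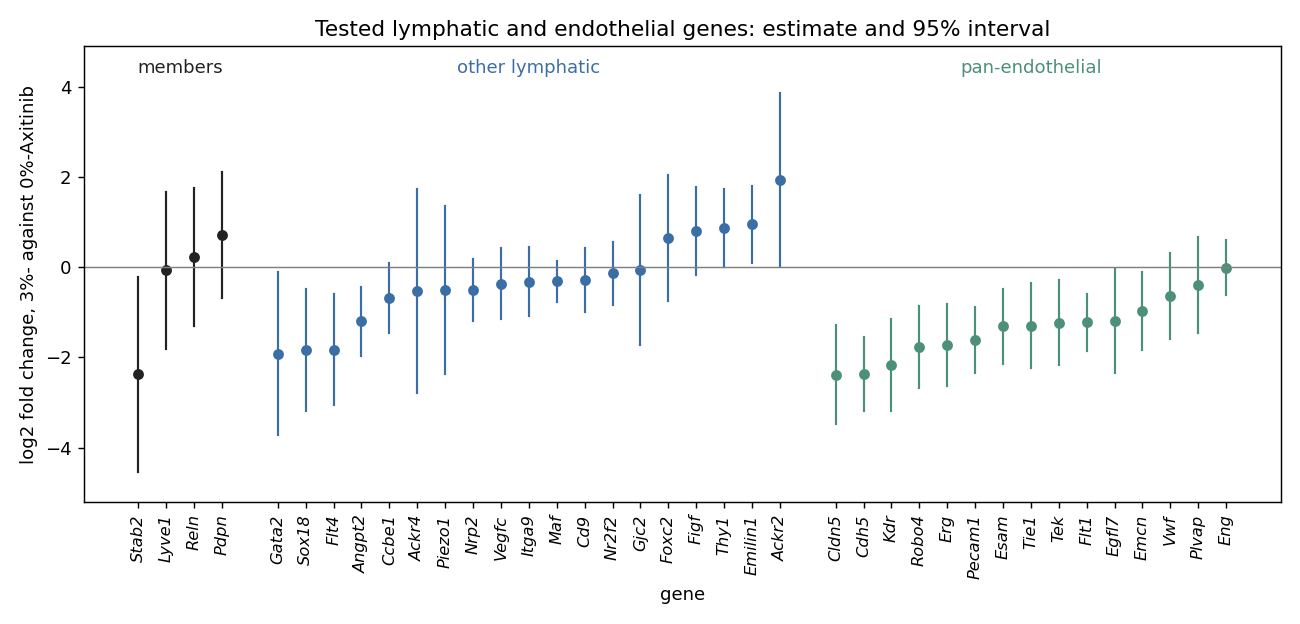
Log2 fold change of the 3%-Axitinib group against the 0%-Axitinib group (n = 3 each, edgeR) for the tested genes among the 6 members, the other lymphatic genes and the pan-endothelial genes, as points with 95% intervals as lines. Of the 4 tested members, the interval of Stab2 lies below 0 and those of Lyve1, Reln and Pdpn span 0, whereas all 15 pan-endothelial estimates are below 0.

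For each tested member, the genes with the most similar pattern were those with the highest Pearson correlation of log2 CPM among 14342 candidates. Over the 6 samples, r was 0.995 for Lyve1 and Nid1, a basement membrane protein, 0.990 for Lvrn and 0.985 for Abca6. Nid1 was at 482, 293 and 138 CPM in the 0%-Axitinib group and at 345, 211 and 323 CPM in the 3%-Axitinib group, so that, as for Lyve1, replicates 1 and 3 of the former were the extremes. For Pdpn, the closest genes were Tomm40l, Cdk20 and Ahnak2 (r of 0.997, 0.997 and 0.996). For Reln, they were Cyp2j9, the lipid synthesis enzyme Fasn and Mpdz (r of 0.991, 0.990 and 0.988), and for Stab2 they were Ttc13, Gtf3c2 and Ndufs1 (r of 0.992, 0.989 and 0.989). With 6 samples that share their tissue content and so many candidates, these values are a description only.

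The sequences before the start of Mmrn1 and Stab2 are shown because these 2 genes were both highest in replicate 3 of the 0%-Axitinib group. They are from RefSeq (GRCm38.p6), in which 5 of the 6 members had a promoter entry. The 250 bases before each start were searched on both strands for GATAA or GATAG with an A or a T before it, the letters that GATA factors bind. This motif was chosen after the values and sequences had been seen. The letters were in the windows of Mmrn1 and Pdpn, in capitals here for Mmrn1, and not in those of Stab2, Reln and Prox1. They were in 26.5% of all 32851 promoter windows of that length, and a match is a description, not a binding site. The Mmrn1 window is chr6:60944067-60944316 on the plus strand. RefSeq's start for Mmrn1 is 19341 bases inside the gene as GENCODE draws it and is the first base of an exon there, so the window may be intron of longer transcripts. The Stab2 window is chr10:87008026-87008192 on the minus strand, the 167 bases of the 250 that lie outside the annotated exon.

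Mmrn1: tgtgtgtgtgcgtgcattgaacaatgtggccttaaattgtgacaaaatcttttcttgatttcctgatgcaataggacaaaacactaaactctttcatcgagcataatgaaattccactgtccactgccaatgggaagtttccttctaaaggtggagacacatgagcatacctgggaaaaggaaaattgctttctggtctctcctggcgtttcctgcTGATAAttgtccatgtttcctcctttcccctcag

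Stab2: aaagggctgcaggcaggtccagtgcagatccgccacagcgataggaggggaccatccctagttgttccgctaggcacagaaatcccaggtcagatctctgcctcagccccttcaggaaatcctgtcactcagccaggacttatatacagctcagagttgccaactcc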

How the data were processed

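RNA of murine tissue harvested with BEC was selected for poly(A), sequenced on an Illumina instrument and filtered with fastp by the authors. They mapped the reads with STAR (version 2.5.2b in the submitters' processing notes) to the mouse genome (GRCm38, mm10) and deposited raw read counts per gene, which are not normalized. The annotation release and the strand setting of the counting are not given in the sources used here. The 4 summary lines for reads without a gene entered neither library sizes nor tests. Unmapped reads, multimapping reads, reads assigned to no annotated feature and ambiguous reads averaged 8.08%, 4.93%, 5.63% and 5.22% of reads in the 0%-Axitinib group and 31.5%, 3.49%, 3.44% and 4.44% in the 3%-Axitinib group. Depth was 17761968, 16716411 and 18005908 reads on genes in replicates 1, 2 and 3 of the 0%-Axitinib group and 9225518, 11686084 and 18403795 in those of the 3%-Axitinib group, so low counts were least precise in replicate 1 of the latter.

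From these counts, low genes were removed by filterByExpr (at least 10 counts, 15 in total), TMM set the scale of libraries, and the groups were compared with edgeR 4.0.16 (R 4.3.3) by its quasi-likelihood test, with p-values adjusted after Benjamini-Hochberg across 15257 genes. The fold and p limits of the study's criterion were applied to edgeR's test, whereas the study normalized with DESeq2. The p was taken as unadjusted, which the study does not state. Single values were compared by exact two-sided permutation over the 6 samples, and log2 CPM used a prior count of 2. The counting interval printed for Prox1 was exact (95%), and counts of 0 were bounded by the limit of 3 counts. Positions and exon lengths came from GENCODE M21. Samples are counted as replicates, but a pair of constructs was placed in each mouse and the mouse of a sample is not given, so p-values may measure a spread that is partly within mice. Alternatives were DESeq2 1.42.0 (size factors or its Wald test), limma 3.58.1 voom, total counts, scaling without muscle genes, other filters, a replicate block, another prior count or reference list, and each sample left out.

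The members and gene lists were chosen with earlier results of these data known, and the lists rest on general textbook knowledge. Named genes were the 6 members with every count, the other lymphatic genes that met the criterion, Flt4, Vegfc, Sox18, Nr2f2 and Ccl21a whatever their values, the most abundant gene of each list, and the 3 genes most correlated with each tested member. Timd4, Marco, Stab1, Fcgr2b, Mrc1, Clec4g, Gata4, Clec1b, Gp9, Col1a2, Col3a1, Dcn, Postn, Sost, Mepe, Alpl, Figf, Eng and Pecam1 were named after their values had been seen. A list of slow muscle and satellite cell genes, led by Tnnt1, had 3 of 4 tested genes higher (1 of 4 without replicate 1 and 6 of 7 without replicate 2 of the 3%-Axitinib group). Plots were made in Python 3.11.15 with matplotlib 3.10.9.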

Additional observations from a re-analysis of the deposited data

Results flagged for a closer look

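The unmapped share of the reads lies outside the gene counts and was larger in the 3%-Axitinib group than in the group without the drug. It was 5.47%, 3.84% and 14.9% in replicates 1, 2 and 3 of the 0%-Axitinib group and 48.4%, 29.2% and 16.8% in the 3%-Axitinib group, with means of 8.08% ± 5.99 and 31.5% ± 15.9 (SD, n = 3 each). Every 3%-Axitinib sample was above every 0%-Axitinib sample, for which exact permutation gave p = 0.1, the lowest value possible with 3 samples against 3. The species of these reads, and their part in the levels of the 6 genes, was not tested.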

How the results depend on the processing

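The direction of Pdpn (log2 fold change) and that of Stab2 were the same under all 14 alternatives. DESeq2's Wald test also used its own size factors, and leaving out a sample also changed which genes passed the filter. Lyve1 turned from -0.07 to 0.35 with limma-voom and to 0.25 with the replicate number as a block. Leaving out single samples gave log2 fold changes from -0.56 to 0.83 for Lyve1, from -0.19 to 1.34 for Reln (past the criterion at 1.34), from 0.26 to 1.17 for Pdpn and from -2.88 to -0.98 for Stab2, and from -0.35 to 0.048 for Nr2f2. Stab2 lost the criterion with limma-voom (-1.65) and with the block (-1.77). The number of members that met it was 0 with limma-voom and with the block, 2 with no filter and 0 to 3 with a sample left out, beside 19.3%, 17.1%, 15.4% and 14.9% to 28.2% of all tested genes. Adjusted calls at 0.05 numbered 1 in edgeR's quasi-likelihood test (3585 at an unadjusted p of at most 0.05), 1961 with DESeq2's Wald test, 2 with limma-voom, 15 with no filter, 2 with the block and 0 to 1252 with a sample left out. The 3241 genes that met the criterion became 2603 with the block and 2365 to 4422 with a sample left out. Relative to the pan-endothelial list, left-out samples moved the difference of Stab2 between -1.29 and 0.53, and those of Lyve1, Prox1, Pdpn, Reln and Mmrn1 kept their sign. Their size did not hold, with a range of -3.18 to -0.19 for Mmrn1, 0.12 to 1.10 for Prox1 and 0.66 to 2.36 for Lyve1. Of all values recomputed, 222 kept their direction and side of the threshold, 28 lost the criterion, 1 gained it, 9 changed sign and 18 counts moved by more than 1.5 times. The causes were not tested. The replicate numbers showed no pairing of the samples by this measure: deviations of same-numbered samples correlated at 0.18, -0.12 and -0.17, and the sample of the other group that each 0%-Axitinib sample correlated with best had its own number only for replicate 1. With 3 samples per group, these correlations cannot decide whether the numbers pair the samples. Prox1, Mmrn1 and Ccl21a were at or under 3 counts in most samples, and such counts are imprecise at this depth. For Mmrn1, 295 and 2 counts came from libraries of similar depth.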
